A study of Mus musculus with 5 samples.

Results

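Type I interferon signalling was followed through 9 of the 32285 genes in the count matrices: the receptor chains Ifnar1 and Ifnar2, the receptor-bound kinases Jak1 and Tyk2, the transcription factors Stat2, Irf9, Irf7 and Irf1, and the inhibitor Socs1. They were taken by symbol as a list that was chosen with earlier results of these data known. All 9 were found in the matrices of all 5 libraries and were reported whatever their values. Expression was measured in single nuclei of mouse brain, with tissue given as hippocampus and cell type as microglia, and was counted as unique molecular identifiers (UMIs), each standing for a captured transcript molecule.

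The comparison was between Tmem119-creERT2-cGaswt/R241E mice (R241E, n = 2) and Tmem119-creERT2-cGaswt/wt mice (WT, n = 3), with 1 library for each mouse. cGAS is a sensor of cytosolic DNA, and its R241E form binds poorly to nucleosomes, which otherwise hold it silent. Both groups carried the tamoxifen-inducible Tmem119-creERT2 driver, active mainly in microglia and brain macrophages, and the R241E allele was present in a single copy, as an inverted exon that Cre turns round. According to the methods, tamoxifen was given to young adults, and nuclei positive for DAPI and negative for NeuN and Olig2 were sorted to enrich microglia. All samples share a protocol text on treating aged mice with the STING inhibitor H151 or with DMSO, but no label gives a library either agent, an age or a sex, and the study text names the control genotype in more than one way. The genotypes in the sample titles were used here.

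Type I interferons bind a receptor made of Ifnar1 and Ifnar2. Tyk2 sits on Ifnar1 and Jak1 on Ifnar2, and these kinases phosphorylate STAT proteins, Stat2 among them, which join Irf9 in the complex ISGF3. ISGF3 binds interferon-stimulated response elements in the promoters of induced genes, Stat2, Irf9 and Irf7 among them, whereas Irf1 is classically switched on through a gamma-activated site, and Socs1 blocks the Janus kinases.

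The members' promoters were searched for the core letters of both elements, on both strands, in RefSeq windows running from 250 bases before to 50 bases after a start site. The build was GRCm38.p6, the assembly behind mm10, to which the libraries were mapped. GAAANNGAAA, the core of the interferon-stimulated response element, stood in 2 of the 11 windows of the 9 members (18.2%) and in 3.44% of all 32851 windows. TTCNNNGAA, the core of the gamma-activated site, stood in 3 of the 11 windows (27.3%) and in 8.30% of all windows. The bases before the start site are shown for 4 members, 5′ to 3′ on the strand of the gene and with the matched letters in capitals: Stat2 and Socs1, which hold the first element and rose in R241E microglia, Irf1, which holds the second and rose, and Ifnar2, which holds the second and did not pass the test.

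Stat2 (chr10:128270248-128270497, plus strand): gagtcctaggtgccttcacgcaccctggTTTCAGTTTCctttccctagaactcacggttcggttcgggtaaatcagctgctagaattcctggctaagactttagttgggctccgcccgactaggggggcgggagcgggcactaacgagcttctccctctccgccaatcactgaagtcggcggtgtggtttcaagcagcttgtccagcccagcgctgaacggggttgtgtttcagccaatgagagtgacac
Socs1 (chr16:10785537-10785786, minus strand): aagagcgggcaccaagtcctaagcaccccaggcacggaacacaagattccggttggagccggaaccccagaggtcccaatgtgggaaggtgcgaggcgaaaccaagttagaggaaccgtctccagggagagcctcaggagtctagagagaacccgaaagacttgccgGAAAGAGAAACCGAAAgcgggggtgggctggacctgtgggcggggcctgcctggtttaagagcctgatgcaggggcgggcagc
Irf1 (chr11:53769764-53770013, plus strand): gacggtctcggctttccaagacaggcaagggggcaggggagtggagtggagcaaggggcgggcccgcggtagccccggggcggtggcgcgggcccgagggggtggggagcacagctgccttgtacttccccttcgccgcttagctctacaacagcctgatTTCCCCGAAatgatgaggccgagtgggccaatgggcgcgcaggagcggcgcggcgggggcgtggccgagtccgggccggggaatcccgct
Ifnar2 (chr16:91372533-91372782, plus strand): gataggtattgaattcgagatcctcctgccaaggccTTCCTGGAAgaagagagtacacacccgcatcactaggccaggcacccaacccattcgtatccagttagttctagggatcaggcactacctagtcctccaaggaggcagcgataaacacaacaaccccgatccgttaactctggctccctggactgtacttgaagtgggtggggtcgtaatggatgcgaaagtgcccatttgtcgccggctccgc

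In Stat2 the match began 222 bases before the start site, on the reverse strand. Socs1 held a pair of overlapping matches, which began 83 and 77 bases before the start site. The match of Irf1 began 90 bases and that of Ifnar2 214 bases before it, and the match of Ifnar1, the remaining member with the second element, spanned the start site. The windows of Jak1, Tyk2, Irf9 and Irf7 held neither string. A match is a string of letters and not evidence of binding.

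The matrices held 9748 nuclei and 4183709 to 10130667 UMIs a library, and 9505 nuclei passed the limits given in the methods. These were clustered and named from marker genes into 11 classes, of which microglia, with 5377 nuclei (1529 R241E, 3848 WT), were the largest, while 325 nuclei in 4 clusters stayed unnamed. Any pair of libraries shared at most 2 barcodes, and the median microglial nucleus held 2061 to 3056 UMIs. All 8 microglial markers, P2ry12 and Tmem119 among them, were detected in microglia, with a summed level of 6715.6 to 7603.1 UMIs per 1000000 UMIs of the class (CPM) in R241E and 7658.5 to 7988.5 CPM in WT. Oligodendrocytes (651 nuclei) and neurons (473 nuclei) were present in spite of the sort. Within microglia, clusters 2, 3 and 15 were mostly R241E and clusters 1, 19 and 20 mostly WT. Cgas transcripts were at 83.2 and 88.0 CPM (R241E) and 66.7, 72.4 and 74.4 CPM (WT) in microglia, and since reads from the 3′ end do not cover the altered codon, the genotypes could not be checked from the counts.

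In microglia the STAT and IRF genes rose in R241E while the genes of the receptor and its kinases did not pass the test. Stat2, Irf9, Irf7, Irf1 and Socs1 were higher by 1.10 to 3.53 on the log2 scale, and the log2 fold changes of Ifnar1, Ifnar2, Jak1 and Tyk2 lay between -0.03 and 0.35. UMIs were summed per mouse over its microglia and tested with the quasi-likelihood test of edgeR, with Benjamini-Hochberg adjustment over all 12727 genes tested and a threshold of 0.05. All 9 members passed the filter on low counts, and 5 were called, all higher, where 6.04% of all genes tested were called higher. The median log2 fold change was 0.18 for the receptor and kinase genes, 1.84 for the STAT and IRF genes and -0.0052 for all genes tested. The p-values rest on the spread between these 5 mice.

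Ifnar1 (ENSMUSG00000022967, chr16:91485032-91510523, plus strand), the chain that carries Tyk2, had 69.4 and 67.2 CPM in the R241E libraries. In WT it had 56.6, 47.5 and 56.4 CPM, so that both R241E values lay above all WT values. The log2 fold change of 0.35 (SE 0.13, 95% interval 0.06 to 0.63) did not pass (edgeR adjusted p = 0.136). Such a separation of the libraries, with R241E above, was seen for 20.4% of all genes tested in microglia.

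Ifnar2 (ENSMUSG00000022971, chr16:91372783-91405589, plus strand), the chain that carries Jak1, had 198.2 and 199.5 CPM in R241E microglia against 186.8, 173.4 and 167.6 CPM in WT microglia. Again the groups did not overlap, and the log2 fold change of 0.16 (SE 0.10, 95% interval -0.05 to 0.37) did not pass (edgeR adjusted p = 0.412).

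Jak1 (ENSMUSG00000028530, chr4:101151974-101265282, minus strand), a kinase shared by many cytokine receptors, had 227.1 and 233.5 CPM in R241E microglia against 240.2, 230.6 and 226.1 CPM in WT microglia. Here the groups overlapped, and the 95% interval of the log2 fold change, -0.23 to 0.17 around -0.03, lay on both sides of 0. Tyk2 (ENSMUSG00000032175, chr9:21104068-21131393, minus strand), the kinase on Ifnar1, had 111.5 and 104.6 CPM against 101.5, 84.4 and 95.4 CPM. Its groups did not overlap, and its log2 fold change of 0.20 (SE 0.12, 95% interval -0.05 to 0.45) did not pass (edgeR adjusted p = 0.363). The intervals of all 4 receptor and kinase genes ended below 1 on the log2 scale.

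Stat2 (ENSMUSG00000040033, chr10:128270498-128292853, plus strand), the STAT that binds Irf9 within ISGF3, had 232.4 and 182.2 CPM in R241E microglia and only 42.9, 40.6 and 38.98 CPM in WT microglia. The WT libraries lay close together with both R241E libraries far above them, and Stat2 rose by 2.35 on the log2 scale (SE 0.13, edgeR adjusted p = 5.24e-09). Apof, which overlaps Stat2 in the annotation, had 4 UMIs in all microglia.

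Irf9 (ENSMUSG00000002325, chr14:55603985-55610030, plus strand), the DNA-binding subunit of ISGF3, had 111.2 and 115.7 CPM in R241E microglia against 48.1, 50.96 and 56.4 CPM in WT microglia. The groups did not overlap, and Irf9 rose by 1.10 on the log2 scale (SE 0.12, edgeR adjusted p = 1.39e-05).

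Irf7 (ENSMUSG00000025498, chr7:141263183-141266499, minus strand), which amplifies interferon production once it is induced, had 46.2 and 52.6 CPM in R241E microglia against 3.64, 4.38 and 4.198 CPM in WT microglia. Behind these values stood 147 and 76 UMIs (R241E) against 9, 19 and 14 (WT). Its rise, 3.53 on the log2 scale (SE 0.22, edgeR adjusted p = 2.15e-08), was the highest log2 fold change of the 9 members in this fit.

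Irf1 (ENSMUSG00000018899, chr11:53770014-53778374, plus strand), an activator of antigen presentation genes, had 64.1 and 59.6 CPM in R241E microglia against 22.2, 25.4 and 25.5 CPM in WT microglia. The groups did not overlap, and Irf1 rose by 1.32 on the log2 scale (SE 0.15, edgeR adjusted p = 2.17e-05).

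Socs1 (ENSMUSG00000038037, chr16:10783808-10785536, minus strand), the feedback inhibitor of the Janus kinases, was counted with 36 and 21 UMIs in R241E microglia and 3, 15 and 15 UMIs in WT microglia. Scaled to depth these were 11.3 and 14.5 CPM against 1.21, 3.46 and 4.498 CPM, with no overlap, and Socs1 rose by 1.93 on the log2 scale (SE 0.39, edgeR adjusted p = 0.00396). With every nucleus thinned to 1000 UMIs the log2 fold change was 1.64 and did not pass (edgeR adjusted p = 0.11, the highest of its alternatives, whose lowest was 2.83e-06). Stat2, Irf9, Irf7 and Irf1 passed under all 13 alternatives tried.

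**Figure D1:**
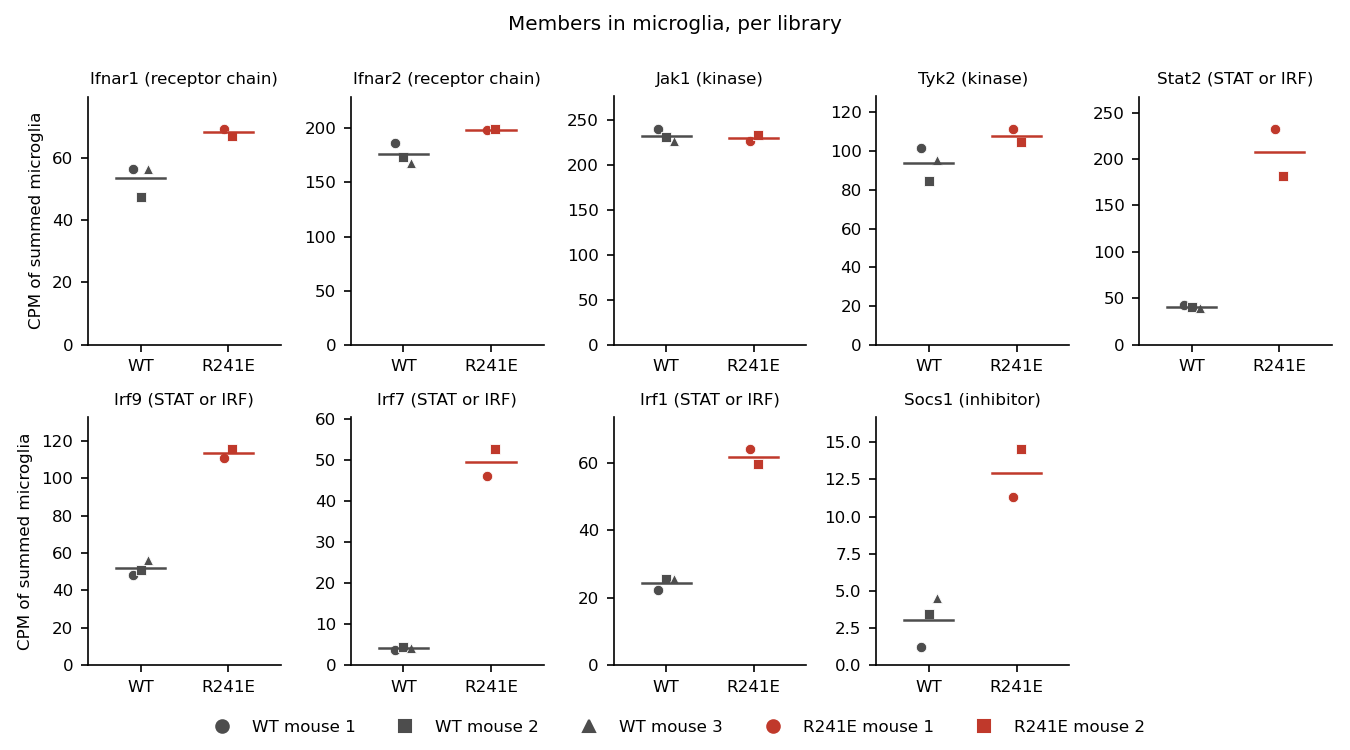
Level of each of the 9 members in microglia, in CPM of the UMIs summed over the microglia of a library, with a scale of its own for each gene. Points are libraries and lines are group means; the R241E libraries stand above the WT libraries for every member but Jak1, and by the widest margins for Stat2, Irf9, Irf7, Irf1 and Socs1.

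**Figure D2:**
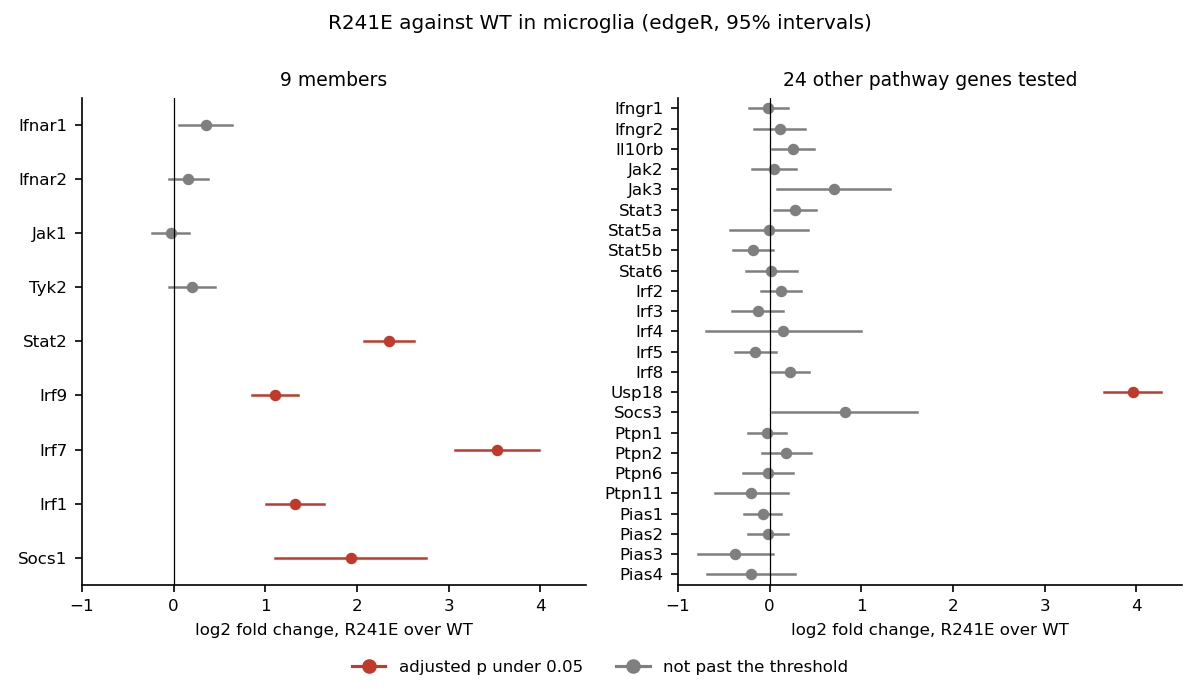
Log2 fold change of R241E over WT in microglia with its 95% interval from edgeR, for the 9 members on the left and the other tested pathway genes on the right, without Ifnb1, which had no UMI in WT. Red points passed the threshold after adjustment, namely Stat2, Irf9, Irf7, Irf1, Socs1 and Usp18.

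Markers of other cells were measured in the same sums. In microglia the 8 markers of border-associated macrophages had a summed level of 98.3 to 143.4 CPM in R241E and 211.2 to 240.2 CPM in WT, and the 7 oligodendrocyte markers 262.6 to 345.7 CPM in R241E and 140.3 to 154.4 CPM in WT, with none of either list at 0. Their part in the members' levels was not tested. A sum over a class does not tell more transcript in each nucleus from more nuclei that hold it, so nuclei with at least 1 UMI were counted too.

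Thinning every microglial nucleus to 1000 UMIs left out 9 to 64 nuclei a library. A Stat2 UMI was then seen in 18.6% and 15.5% of R241E microglia and in 3.43%, 2.903% and 3.97% of WT microglia, and without thinning in 34.99% and 28.7% against 9.503%, 10.1% and 7.79%. Irf7 was seen in 4.91% and 5.03% of R241E and 0.221%, 0.622% and 0.577% of WT nuclei. The groups did not overlap for either gene, and the share of all genes so separated in thinned nuclei was not measured.

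Irf9 was seen in 10.2% ± 1.399 of R241E and 5.26% ± 0.901 of WT microglia (SD, n = 2 and 3), and Irf1 in 6.38% ± 0.768 and 2.92% ± 0.217. Socs1 was seen in 1.003% and 2.01% of R241E and in 0%, 0.553% and 0.577% of WT microglia, where 0 of 903 nuclei allows a share of up to 0.332%. These floors and the intervals on UMI counts cover counting error only.

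Ifnar1 was seen in 7.28% ± 0.3396 of R241E and 4.88% ± 0.587 of WT microglia, Ifnar2 in 17.7% ± 0.0377 and 16.2% ± 0.908, Jak1 in 19.9% ± 0.242 and 19.99% ± 0.602, and Tyk2 in 9.29% ± 1.19 and 8.48% ± 1.18. The two-sided exact permutation test gave p = 0.1 for Stat2, Irf9, Irf7, Irf1, Socs1 and Ifnar1, the smallest that 2 against 3 libraries allow. How many of all genes reach it was not measured. In the microglial sums 20.4% of all genes tested had both R241E libraries above all WT libraries. For Ifnar2, Jak1 and Tyk2 the exact permutation p was 0.2, 0.9 and 0.6. Among neurons thinned in the same way no Irf7 UMI was seen, but 0 of 68 nuclei in R241E mouse 2 allows up to 4.41% and 0 of 195 in WT mouse 1 up to 1.54%, so the background share of Irf7 was not resolved below these limits.

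The rest of the pathway was read from 49 other genes, listed by role. In microglia 25 of them passed the filter and 2 were called, both higher: the interferon gene Ifnb1 and Usp18. Of all genes tested 6.04% were called higher, so 2 calls among 25 genes were near the share over all genes. By role, the calls were 1 of 1 ligand tested, 0 of 3 receptor chains, 0 of 2 Janus kinases, 0 of 4 STAT genes, 0 of 5 IRF genes and 1 of 10 negative regulators. Their median log2 fold change was 0.02.

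Ifnb1, a type I interferon, had 15 and 7 UMIs in R241E microglia and 0 in each WT library, and it was at least 16.1-fold higher when set against a floor of 3 UMIs over all WT microglia. It passed the filter on low counts through the R241E libraries alone, so that its call adds nothing to these counts, and it was too scarce to be tested without R241E mouse 1 or after thinning. No Ifnb1 UMI was counted in any other named class, and 17 of the 20 ligand genes had no UMI in microglia.

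Usp18, which removes ISG15 from proteins and holds back signalling at Ifnar2, had 193.8 and 162.1 CPM in R241E microglia against 10.9, 10.6 and 12.6 CPM in WT microglia. It rose by 3.96 on the log2 scale (SE 0.15, edgeR adjusted p = 7.97e-11).

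Ifnar2 and Ifnar1 lie with Il10rb, a chain of the interleukin-10 and interferon-lambda receptors, and Ifngr2, a chain of the interferon-gamma receptor, within 191 kb (chr16:91372783-91564007, GRCm38.p6). None of these 4 neighbours passed in microglia. Il10rb had 122.8 and 117.1 CPM in R241E against 100.3, 100.1 and 97.8 CPM in WT (log2 fold change 0.26, edgeR adjusted p = 0.167). Ifngr2 had 203.8 and 156.6 CPM against 181.9, 173.2 and 146.6 CPM (log2 fold change 0.11, edgeR adjusted p = 0.714), with overlapping groups.

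Microglia were next divided by how many interferon-induced transcripts a nucleus held. The UMIs of 25 genes, the interferon list of the study without Stat2, Irf7 and Usp18, were counted in nuclei thinned to 1000 UMIs. Nuclei with 0 such UMIs made up 16.9% and 24.9% of R241E and 73.98%, 71.8% and 71.7% of WT microglia, and nuclei with at least 3 made up 38.8% and 31.6% of R241E and 2.44%, 2.21% and 2.02% of WT microglia. The list was used by the study of these samples, which derived its gene sets from earlier publications. The division describes the nuclei and was not tested.

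Stat2 was highest in the nuclei with most list UMIs in both genotypes. Its means over the R241E libraries were 101.8, 142.9 and 373.4 CPM at 0, 1 to 2 and at least 3 list UMIs, and its means over the WT libraries were 34.4, 36.7 and 133.3 CPM. Among nuclei with 0 list UMIs the R241E libraries, at 130.95 and 72.6 CPM, lay above the WT libraries, at 41.9, 25.99 and 35.2 CPM.

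Irf7 had means of 19.97, 27.6 and 114.9 CPM in R241E and 1.65, 8.06 and 74.9 CPM in WT over the same 3 strata, the last from 6 UMIs in 82 nuclei. With the highest stratum started at 5 list UMIs, which left 3 to 5 nuclei per WT library, the order of the genotypes there turned, with Stat2 at 518.1 CPM in R241E and 672.2 CPM in WT and Irf7 at 242.1 CPM and 522.2 CPM. Where no list UMI was seen, the groups did not overlap for Irf7, Irf9 and Irf1 either. Irf7 was there at 23.8 and 16.1 CPM in R241E, from 4 and 2 UMIs, and 0, 1.92 and 3.02 CPM in WT. The R241E values of Irf9 and Irf1 rested on 9 to 26 UMIs per library. Irf9 was there at 154.8 and 96.8 CPM in R241E and 50.9, 46.2 and 69.4 CPM in WT. Irf1 was at 59.5 and 72.6 CPM in R241E and 26.9, 32.7 and 31.2 CPM in WT. The share of all genes separated in this stratum was not measured. Over the 3 strata Irf9 had means of 125.8, 92.5 and 128.3 CPM in R241E and 55.5, 52.97 and 113.4 CPM in WT. Those of Irf1 were 66.1, 59.5 and 82.2 CPM in R241E and 30.3, 29.9 and 22.3 CPM in WT. Those of Socs1 were 5.95, 8.08 and 31.3 CPM in R241E and 3.59, 4.54 and 0 CPM in WT.

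Jak1 showed no comparable step, with means of 214.96, 225.4 and 238.1 CPM in R241E and 237.9, 220.4 and 176.7 CPM in WT. Ifnar2 had means of 172.9, 221.8 and 190.97 CPM in R241E and 184.1, 180.2 and 136.2 CPM in WT. Tyk2 had means of 105.99, 108.6 and 88.7 CPM in R241E and 89.8, 89.2 and 142.5 CPM in WT. Ifnar1 had means of 73.7, 84.5 and 74.9 CPM in R241E and 51.9, 49.4 and 34.2 CPM in WT, and its groups overlapped at 0 and at 3 or more list UMIs.

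**Figure D3:**
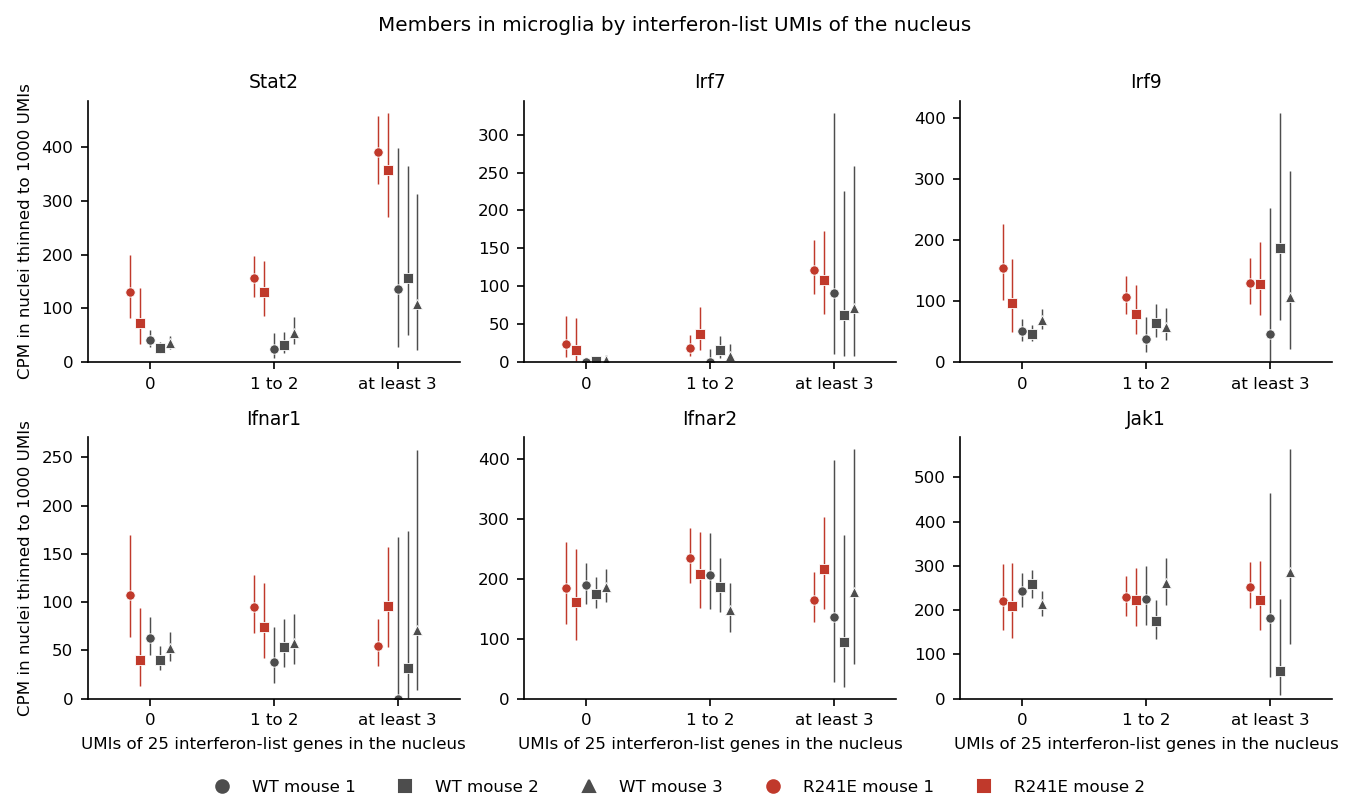
Level of 6 members in microglia, in CPM of nuclei thinned to 1000 UMIs, by the number of interferon-list UMIs in the nucleus (25 genes). Points are libraries and bars are exact 95% Poisson intervals, which cover counting error only. Stat2 and Irf7 stand highest at 3 or more list UMIs, while Ifnar1, Ifnar2, Jak1 and, in R241E, Irf9 show no such step. The WT bars at 3 or more list UMIs are wide because only 82 nuclei are behind them.

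The order of cell classes was read from WT in the 7 classes with 20 nuclei or more in each of the libraries. Border-associated macrophages, which live in the meninges and around vessels, came first for Ifnar1, Ifnar2, Jak1, Tyk2, Stat2 and Irf9. Ifnar1 was at 130.3 CPM ± 33.5 there, at 53.5 CPM ± 5.19 in microglia and at 38.3 CPM ± 7.35 in fibroblasts (SD, n = 3), and these 3 neighbours in the order did not overlap. Neurons, astrocytes, mural cells and oligodendrocytes followed with means of 16.4 to 19.6 CPM and overlapping ranges.

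Ifnar2 was at 243.6 CPM ± 53.04 in border-associated macrophages and 175.9 CPM ± 9.83 in microglia, which did not overlap, and at 162.4 CPM ± 98.3 in mural cells, whose range overlapped that of microglia. It was lowest in neurons (27.6 CPM ± 2.02) and oligodendrocytes (22.2 CPM ± 1.32). Jak1 did not separate border-associated macrophages (239.8 CPM ± 89.5), microglia (232.3 CPM ± 7.18) and mural cells (194.2 CPM ± 45.9), and it was lowest in oligodendrocytes (17.8 CPM ± 12.5). Tyk2 was at 109.4 CPM ± 24.1 in border-associated macrophages and 93.7 CPM ± 8.66 in microglia, which overlapped, with means of 25.3 to 46.5 CPM in the other 5 classes.

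Stat2 in WT was at 141.7 CPM ± 55.1 in border-associated macrophages, and the means of the other 6 classes lay between 30.6 and 50.6 CPM, each overlapping the next. Irf9 ran from 59.2 CPM ± 13.4 in border-associated macrophages and 51.8 CPM ± 4.198 in microglia, which overlapped, to 5.21 CPM ± 6.24 in oligodendrocytes. Irf1 had means of 20.6 to 24.4 CPM in microglia, border-associated macrophages and fibroblasts and of 2.17 to 6.51 CPM elsewhere. Irf7, with means of 0.368 to 23.5 CPM, overlapped between all neighbours in its order, and so did Socs1, at 0 to 13.4 CPM, except between microglia and mural cells.

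Lymphocytes were too few for a test, with 155 R241E and 38 WT nuclei, of which 28 came from WT mouse 3. Jak1 stood at 556.3 and 631.5 CPM in the R241E lymphocytes, Socs1 at 191.1 and 281.9 CPM and Irf1 at 184.3 and 146.6 CPM, each above the microglia of the same library. In the lymphocytes of WT mouse 3, Jak1 was at 668.9 CPM and Socs1 at 144.6 CPM. Both genes are known in lymphocytes for their part in cytokine signalling.

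Outside microglia, both R241E libraries lay above all WT libraries for Stat2 in each of the 6 other tested classes, but only oligodendrocytes, the myelin-forming cells, held calls. Stat2 there had 110.2 and 161.5 CPM in R241E and 26.6, 28.1 and 53.4 CPM in WT. It rose by 1.79 on the log2 scale (SE 0.30, edgeR adjusted p = 0.00197). Among WT libraries only that of mouse 3 reached the filter on low counts, so Stat2 entered the test through the R241E libraries. Irf9 had 49.1 and 51.5 CPM in R241E and 0, 3.51 and 12.1 CPM in WT, from 0, 1 and 5 UMIs in WT. Its log2 fold change was 3.08 (SE 0.61, edgeR adjusted p = 0.0142), but it passed the filter on low counts through the R241E libraries alone, so that a tested Irf9 had to differ here.

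Both were called, of the 4 members tested in oligodendrocytes, where 0.285% of all genes were called. Since both entered the test through the R241E libraries, these 2 calls were not weighed against that share. Neither passed with limma-voom (Stat2 1.71, Irf9 3.43 on the log2 scale) or without WT mouse 2 (1.66 and 2.89). After thinning Stat2 did not pass (2.84) and Irf9 was too scarce to be tested, and Irf9 also failed with DESeq2 (3.16) and without R241E mouse 1 (3.11). Without WT mouse 3 the log2 fold change of Irf9 was 4.77.

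RNA of microglia in other classes was gauged by the 8 microglial markers. In R241E oligodendrocytes their summed level was 3.38% and 2.67% of that in microglia of the same library. Stat2 stood at 47.4% and 88.7% of its microglial level in R241E and at 62.01%, 69.1% and 136.9% in WT oligodendrocytes, and Irf9 at 44.1% and 44.6% and at 0%, 6.88% and 21.5%. The summed markers were at 202.8 to 227.2 CPM in R241E and 171.3 to 552.9 CPM in WT oligodendrocytes, with none of the 8 at 0. In R241E astrocytes the summed markers stood at 3.62% and 4.51% of the microglial level, Stat2 at 38.6% and 47.9% (WT 42.7%, 84.7% and 147.8%) and Irf9 at 56.4% and 52.1% (WT 19.02%, 22.5% and 44.3%). The part of microglial RNA in the levels of these classes was not tested.

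In astrocytes Irf9 had 62.7 and 60.3 CPM in R241E and 9.15, 11.5 and 24.97 CPM in WT. The groups did not overlap, and the log2 fold change of 1.92 (SE 0.38) missed the threshold (edgeR adjusted p = 0.0557). Stat2 had 89.8 and 87.3 CPM in R241E and 18.3, 34.4 and 57.6 CPM in WT astrocytes, with a log2 fold change of 1.23 that did not pass (edgeR adjusted p = 0.205). Irf9 passed without R241E mouse 2 (1.97), and both genes passed with no filter on low counts (1.97 and 1.28). Both also passed with the mouse number as a replicate block (2.58 and 1.81), although the sample titles do not pair the mice by number. Astrocytes of R241E mouse 1 lay mostly in cluster 6 (173 of 178) and those of WT mouse 3 mostly in cluster 7 (115 of 145).

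No member was called in astrocytes (6 tested), border-associated macrophages (6), fibroblasts (5), mural cells (4) or neurons (3) by edgeR, DESeq2 or limma-voom. At an unadjusted edgeR p under 0.05 were Stat2 in all 5 of these classes and Irf9 in astrocytes and mural cells. Many other genes stood at that level, 730 of 7911 tested in astrocytes, 323 of 3947 in border-associated macrophages and 413 of 5809 in fibroblasts. In mural cells they were 174 of 3862 and in neurons 428 of 5800. In mural cells no WT library reached the filter on low counts for Stat2 or Irf9. In astrocytes only WT mouse 3 reached it for Irf9. Stat2 in mural cells and Irf9 in both classes thus entered the test through the R241E libraries. The share of all genes called after adjustment was 0.43% in astrocytes, 0.937% in border-associated macrophages, 0.0172% in fibroblasts and 0% in mural cells and in neurons. DESeq2 called 0 genes in mural cells and 28 in neurons, and limma-voom called 0 in both. On simulated counts 23.5% of genes with a true 2-fold change were recovered in astrocytes and 70.5% in microglia.

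Border-associated macrophages had 232.7 and 196.6 CPM of Stat2 in R241E and 189.5, 81.5 and 154.1 CPM in WT, and fibroblasts 117.3 and 98.6 CPM and 53.3, 40.7 and 57.97 CPM. Mural cells had 72.7 and 89.2 CPM in R241E and 12.98, 41.8 and 49.9 CPM in WT, and neurons 73.8 and 74.9 CPM and 16.6, 38.3 and 36.97 CPM, with 147 of the 198 neurons of WT mouse 1 in cluster 21. R241E lay above WT in all libraries for 10.1% of the genes tested in astrocytes, 11.6% in border-associated macrophages, 8.52% in fibroblasts, 9.22% in mural cells, 12.2% in neurons and 9.09% in oligodendrocytes.

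**Figure D4:**
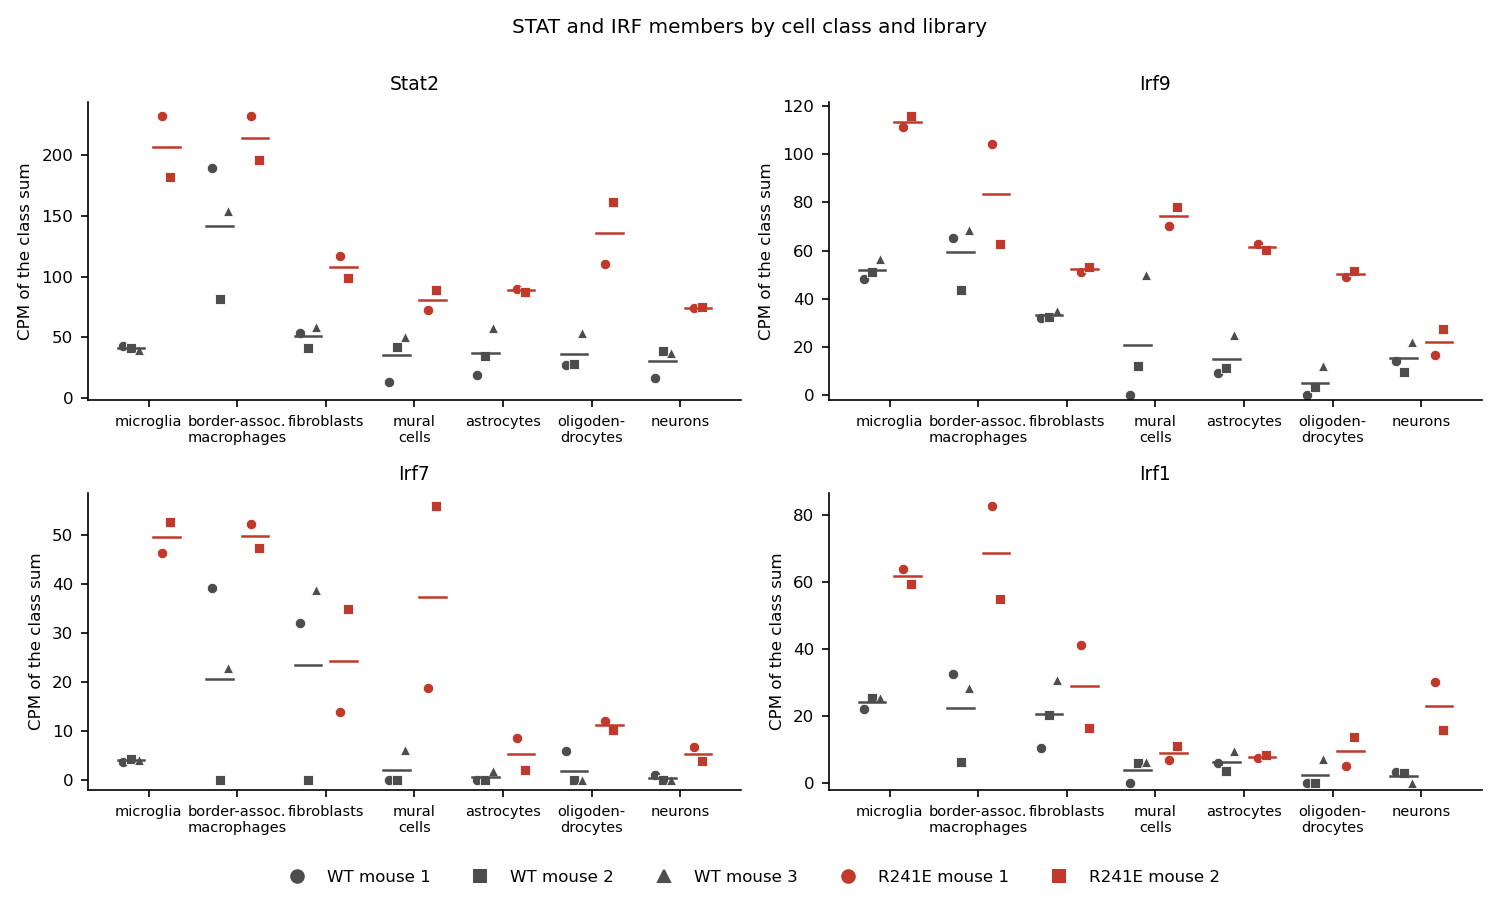
Level of Stat2, Irf9, Irf7 and Irf1 in the 7 tested classes, in CPM of the UMIs summed over a class in a library. Points are libraries and lines are group means; for Stat2 the R241E libraries lie above the WT libraries in every class, while the groups overlap for Irf7 in fibroblasts, for Irf9 in border-associated macrophages and neurons, and for Irf1 in astrocytes, oligodendrocytes and fibroblasts.

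Both ends of the pathway were set in 1 value per library, the UMIs of Stat2, Irf9, Irf7 and Irf1 per UMI of Ifnar1, Ifnar2, Jak1 and Tyk2. In microglia it was 0.749 and 0.678 in R241E and 0.1997, 0.226 and 0.229 in WT. Oligodendrocytes gave 1.48 and 1.68 in R241E and 0.344, 0.391 and 0.638 in WT, and border-associated macrophages 0.602 and 0.505 and 0.424, 0.171 and 0.436. The R241E libraries lay above the WT libraries in all 7 classes. The receptor and kinase genes alone summed to 606.2 and 604.8 CPM in R241E and 585.04, 535.9 and 545.5 CPM in WT microglia, also without overlap, as in oligodendrocytes, and their groups overlapped in the other 5 classes.

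**Figure D5:**
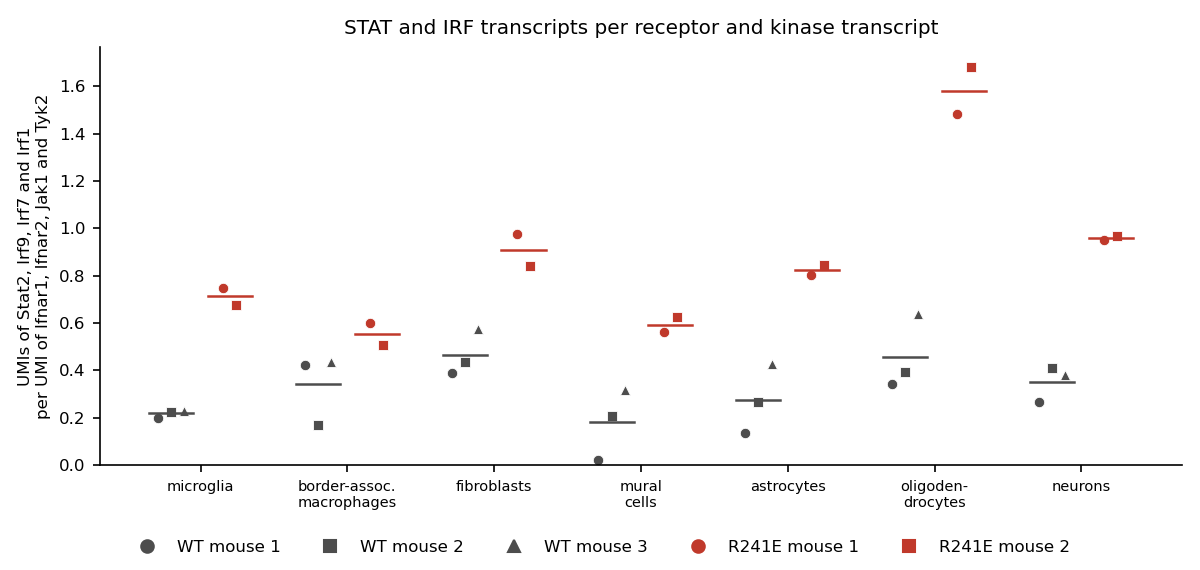
UMIs of Stat2, Irf9, Irf7 and Irf1 per UMI of Ifnar1, Ifnar2, Jak1 and Tyk2, by cell class. Points are libraries and lines are group means; the R241E libraries lie above the WT libraries in each of the 7 classes, with R241E values from 0.505 in border-associated macrophages to 1.68 in oligodendrocytes.

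The difference between the R241E effect in microglia and in another class was tested as a class-by-genotype term in edgeR, with the library as a term. The effect on Stat2 was smaller in border-associated macrophages than in microglia, and the difference of the former minus the latter was -1.68 on the log2 scale (SE 0.31, 95% interval -2.29 to -1.07, edgeR adjusted p = 3.03e-05), and this passed under all 7 alternatives. In R241E the classes had like levels, 214.6 CPM ± 25.6 in border-associated macrophages and 207.3 CPM ± 35.5 in microglia (SD, n = 2), while the WT level was higher in border-associated macrophages. Microglial markers in that class summed to 2330.2 to 2791.3 CPM in R241E and 2779.9 to 2951.2 CPM in WT, with Tmem119 at 0 UMIs, which allows up to 3.19 CPM, and their part in the difference was not tested.

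The effect on Irf7 was smaller in fibroblasts than in microglia, with a difference, fibroblasts minus microglia, of -3.30 on the log2 scale (SE 0.72, 95% interval -4.70 to -1.90, edgeR adjusted p = 0.00111). Fibroblasts had 13.8 and 34.9 CPM of Irf7 in R241E and 31.98, 0 and 38.6 CPM in WT, from 10 and 17 and from 3, 0 and 10 UMIs. The difference did not pass without R241E mouse 1 (-2.74), WT mouse 1 (-3.11) or WT mouse 3 (-2.14) or after thinning (-3.42).

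No other difference of a member passed. On simulated counts this test recovered only 13.7% of genes with a true 2-fold difference of effect between microglia and astrocytes. The difference for Irf9, oligodendrocytes minus microglia, was 2.06 (SE 0.58, log2 scale, edgeR adjusted p = 0.0537), and it passed without WT mouse 3 (3.77). That for Stat2, astrocytes minus microglia, was -1.08 (SE 0.35, edgeR adjusted p = 0.181), and it passed without WT mouse 1 (-1.43). Differences from microglia were called for 0.764% of all genes tested with astrocytes, 0.779% with border-associated macrophages, 1.02% with fibroblasts, 0.334% with mural cells, 0.214% with neurons and 0.721% with oligodendrocytes.

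The genes with the profile most like each member were sought among 13966 genes with 100 UMIs or more, by Pearson's r of log2 CPM over the 35 sums of 7 classes in 5 libraries. These sums share mice and classes, so r is a description. Stat2 was most like Parp12 (0.83), Ifi27l2a (0.81) and Nlrc5 (0.79), Irf9 most like Parp12 (0.83), H2-K1 (0.83) and Irgm2 (0.82), and Irf7 most like Ifi27l2a (0.86), Usp18 (0.79) and Cd74 (0.78). Irf1 was most like Irgm1 (0.79), Nfe2l2 (0.78) and Srgn (0.77), and Socs1, with 138 UMIs in all, most like Ptgr1 (0.69), Gm12216 (0.68) and H2-T23 (0.64).

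Other genes headed the lists of the receptor and kinase members. Ifnar1 was most like Ctsc (0.87), Ctsb (0.87) and Ctla2b (0.86), and Ifnar2 most like Olfr56 (0.91), Tlr4 (0.88) and Rab8b (0.87). For Jak1 they were Rnaset2b (0.87), Tnfaip8 (0.87) and Lpin2 (0.86), and for Tyk2 Mbnl1 (0.88), Gm32591 (0.85) and Grb2 (0.85). Between members, r of Stat2 was 0.76 with Irf9, 0.73 with Irf7, 0.69 with Irf1 and 0.36 with Socs1. With the receptor and kinase genes it was 0.59 for Ifnar1, 0.25 for Ifnar2, 0.25 for Tyk2 and 0.12 for Jak1. Ifnar1 had an r of 0.61 with Irf9 and 0.59 with Ifnar2, so r did not part the members cleanly by role.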

How the data were processed

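Single-nucleus libraries (10x Genomics 3′, v3.1) of 2 R241E and 3 WT mice were analysed, grouped by the genotype in their titles. The authors made the deposited UMI counts with Cell Ranger 7.0.0 on mm10, per the file headers and the labels. Nuclei with at least 200 genes, under 4500 genes, under 10000 UMIs and under 5% mitochondrial UMIs were kept, with the upper limits of the study's methods. They were clustered in scanpy 1.11.5 (3000 variable genes, 30 components, 20 neighbours, Leiden resolution 1) and named from marker genes. Scrublet, as run in scanpy, marked 43 of 9505 nuclei, which is too few for its calls to be relied on, and no nucleus was removed as a doublet. An alternative left out the 156 highest scores. Counts were summed per mouse and class and tested with edgeR 4.0.16 (TMM, filterByExpr, R 4.3.3), with DESeq2 1.42.0 and limma 3.58.1 (voom) as alternatives. The study tested single nuclei with MAST, whereas here mice were the replicates. The other alternatives were another scaling, no filter on low counts, nuclei thinned to 1000 UMIs, upper limits lifted, a replicate block and leaving out each mouse. On simulated counts edgeR recovered 141 of 200 genes changed 2-fold in microglia with 10 false calls among 12727 genes, and 47 of 200 in astrocytes among 7911. All 9 members were named, with the pathway genes called in microglia, Il10rb and Ifngr2, and the 3 genes most like each member. The members and lists were chosen with earlier results of these data known. The libraries of a group were not copies of each other. Promoter sequences came from RefSeq. A further gene of the pathway list is not reported here.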

Additional observations from a re-analysis of the deposited data

Results flagged for a closer look

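The effect of R241E on Stat2 differed between border-associated macrophages and microglia, with the former minus the latter at -1.68 on the log2 scale in a test of the difference itself (edgeR adjusted p = 3.03e-05). Over the 7 alternatives it lay between -2.08 and -1.48 and passed in each.

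The effect of R241E on Irf7 differed between fibroblasts and microglia, with the former minus the latter at -3.30 on the log2 scale (edgeR adjusted p = 0.00111), with 0 to 17 Irf7 UMIs per library in fibroblasts. It did not pass under 4 of its 7 alternatives, namely without R241E mouse 1, WT mouse 1 or WT mouse 3 and after thinning, and the cause was not tested.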

How the results depend on the processing

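The number of members called in microglia was 5 under every alternative except thinning to 1000 UMIs, where it was 4. Over the called fold changes of members no alternative turned the direction (7 values, 90 alternatives), whereas 7 of the 30 values that were not called turned at least once. Among the called values, Stat2 and Irf9 in oligodendrocytes entered the test through the R241E libraries. Their kept direction, over 13 and 12 alternatives, therefore adds nothing. The genes called in microglia, 1183, became 707 after thinning, which also left fewer genes to test, and ran from 535 to 1527 when 1 mouse was left out, with 535 without R241E mouse 1 and 770 without WT mouse 2. The deviations of same-numbered mice from their group means correlated at 0.0992 and -0.0179, which gave no sign of a pairing by number. With 2 R241E mice these deviations mirror each other, so the 2 values cannot exclude a pairing. With the number as a replicate block 2095 genes were called in microglia, and members called were 2 in astrocytes (Irf9 and Stat2) and 4 over all classes but microglia.

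In astrocytes 0 members were called, 2 without the filter on low counts, and 0 to 1 with a mouse left out. In oligodendrocytes 2 were called, 1 with DESeq2, 0 with limma-voom, 0 after thinning, and 0 to 2 with a mouse left out. Over all classes but microglia 2 were called, 4 without the filter, 1 with DESeq2, 0 with limma-voom, 0 after thinning, and 0 to 3 with a mouse left out. Other pathway genes called in microglia were 2, 1 after thinning, and 1 to 3 with a mouse left out (1 without R241E mouse 1). Of the differences from microglia 2 were called, 1 after thinning, and 1 to 2 with a mouse left out.

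The difference in the share of microglia with a UMI (R241E minus WT, in percentage points) turned for Ifnar2 from 1.45 to -0.523 at 500 UMIs. For Jak1 it turned from -0.099 to 3.61 without thinning, to 0.387 at 500 UMIs, and ran from -0.396 to 0.206 with a mouse left out. For Tyk2 it was 0.815 and ran from -0.0252 to 1.65, the lowest without R241E mouse 1. Starting the highest stratum at 5 list UMIs left 3 to 5 nuclei per WT library and turned the order of the genotypes for Stat2 and Irf7. The R241E means were then 518.1 CPM for Stat2, 161.9 for Irf9 and 242.1 for Irf7, and the WT means 672.2 for Stat2, 522.2 for Irf7, 66.7 for Ifnar2, 0 for Jak1 and 0 for Irf1. The causes of these changes were not tested. Socs1 in microglia passed at full depth and not after thinning. Outside microglia the filter on low counts left 3 to 6 of the 9 members to test in a class.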
